A study of Homo sapiens with 6 samples.

Results

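The genes described here are the core of the Hippo pathway, its TEAD transcription factors and a set of YAP target genes, 40 genes of the 40396 in the expression table. They were chosen by name from knowledge of the pathway, with earlier results of these data known. There were 30 core genes and 10 targets, and all 40 were found. Shares of these genes and of the lists below, set beside all tested genes, are thus descriptions and not tests. H1 human embryonic stem cells were differentiated to definitive endoderm (DE) for 3 days with activin A at 50 ng/ml, and the Wnt pathway activator CHIR99021 was present at 2.5 µM for the first 24 h. The 3 control libraries received DMSO and the 3 SAR libraries received 0.5 µM saracatinib (SAR), known as an inhibitor of Src family kinases. Both groups therefore shared the line, activin A and CHIR99021. At 0.5 µM the study did not find Src phosphorylation effectively inhibited. It reported less phosphorylation of focal adhesion kinase at some sites and less YAP protein in the nucleus. All libraries came from 1 cell line, and the labels do not say whether the libraries of a group came from separate cultures, so the p-values measure only the spread between these libraries, which may be technical. Expression was given as FPKM, fragments scaled by gene length and library total.

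The Hippo pathway is a kinase cascade that restrains the transcriptional coactivators YAP1 and TAZ (encoded by WWTR1). The kinases STK3 and STK4 activate LATS1 and LATS2, which phosphorylate YAP1 and TAZ and so keep them in the cytoplasm, while unphosphorylated YAP1 and TAZ enter the nucleus and bind TEAD factors at target genes. Cell contact, the actin cytoskeleton and focal adhesion kinase signaling are known inputs. In pluripotent cells YAP1 and the TEAD factors are present and the pathway takes part in the choice of lineage. Transcript levels do not report phosphorylation or location in the cell, which control YAP1 and TAZ.

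TEAD factors bind DNA at sites that hold the letters GGAATG, or CATTCC on the other strand. The 250 bases before each listed start of a gene, from RefSeq on GRCh38.p14, were searched for these 6 letters on both strands, with no other motif searched. Some genes had more than 1 listed start. A sequence was found for 31 of the 40 genes, and 9 of the 31 (29%) held the letters in at least 1 such window, against 14.3% of the 27305 genes of the table with a sequence. Members had more windows per gene than other genes, and per window the shares were 9 of 47 (19.1%) against 11.9%. Among the core genes 5 of 24 held them and among the targets 4 of 7. These counts include the core genes AMOTL2, TAOK3 and AJUBA and the target AXL. In each of them the match lay only before a second RefSeq start inside the GENCODE 29 gene, and the other window held none. The windows of CCN2 and PTPN14 are shown as 2 targets with the letters, and those of GADD45B and AMOT as the target and the core gene with the lowest adjusted p in the comparison below, neither of which held them. Each sequence runs 5′ to 3′ on the strand of its gene and ends 1 base before the gene's RefSeq start, and capitals mark the letters searched.
CCN2, chr6:131951373-131951622, minus strand: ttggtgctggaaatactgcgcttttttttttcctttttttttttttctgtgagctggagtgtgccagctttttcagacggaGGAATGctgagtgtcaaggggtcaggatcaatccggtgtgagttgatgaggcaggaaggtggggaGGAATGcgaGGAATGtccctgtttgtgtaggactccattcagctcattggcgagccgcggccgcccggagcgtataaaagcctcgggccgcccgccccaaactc
PTPN14, chr1:214551603-214551852, minus strand: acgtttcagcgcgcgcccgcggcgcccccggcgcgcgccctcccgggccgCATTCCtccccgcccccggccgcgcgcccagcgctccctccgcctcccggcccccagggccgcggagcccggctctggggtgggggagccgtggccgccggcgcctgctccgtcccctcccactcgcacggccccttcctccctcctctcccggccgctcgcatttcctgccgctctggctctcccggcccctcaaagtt
GADD45B, chr19:2475877-2476126, plus strand: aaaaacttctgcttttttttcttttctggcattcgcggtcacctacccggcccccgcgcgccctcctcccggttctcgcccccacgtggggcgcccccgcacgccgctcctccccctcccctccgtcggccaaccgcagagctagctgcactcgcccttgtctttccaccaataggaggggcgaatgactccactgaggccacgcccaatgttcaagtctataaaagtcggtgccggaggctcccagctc
AMOT, chrX:112840832-112841081, minus strand: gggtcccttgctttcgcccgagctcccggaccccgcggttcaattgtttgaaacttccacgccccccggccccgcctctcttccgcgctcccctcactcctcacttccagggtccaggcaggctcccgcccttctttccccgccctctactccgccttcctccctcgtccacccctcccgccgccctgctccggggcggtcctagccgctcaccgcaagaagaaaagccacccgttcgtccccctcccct
In CCN2 the 3 matches began 169, 104 and 95 bases before the start, and in PTPN14 the single match began 200 bases before it. ANKRD1 held 2 before its RefSeq start, and both are shown within 30 bases of sequence, the match that began 220 bases before the start first and the one at 128 bases second.
ANKRD1, farther: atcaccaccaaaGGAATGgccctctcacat
ANKRD1, nearer: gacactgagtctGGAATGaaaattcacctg
YAP1 itself held 1 match, at 162 bases, and WWC2 held 2, at 222 and 208 bases. In GENCODE 29 the ANKRD1 gene begins farther upstream, with 189 of the 250 bases in its exon, and the nearer match lies inside that exon. The PTPN14 gene also begins farther upstream there, at base 214552449. Its whole window, with 0 exon bases, thus lies inside the GENCODE gene and not before its start. Of the YAP1 and WWC2 windows 250 and 193 bases lie in exons of other genes, on the opposite strand. A match is a description of the letters and not a bound site, and no match says only that these letters are not in this window.

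Differential expression between SAR and control was tested in limma, using log2(FPKM + 0.1) of the 16371 genes whose mean reached 0.5 FPKM, with two-sided p-values and Benjamini-Hochberg adjustment over all of them. Rose and fell are used for an adjusted p under 0.05, and upregulated and downregulated for genes that also passed a log2 fold change of 1 in either direction. The median of all tested genes lay at 0.12 on the log2 scale as deposited and at 0.00 after median-ratio rescaling, in which each library is divided by its median ratio to the others, so log2 fold changes after rescaling are lower by about that shift. Library totals recovered from the FPKM were 18877964 to 24419937 reads in control and 16681280 to 18389543 with SAR. The DE list had no marker below 0.5 FPKM on average, and the expression of FOXA2 and SOX17, which the study used as DE markers, was found in every library. SAR replicate 3 stood apart from the other SAR libraries in several of the genes below, and their fold changes are given with and without it.

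Of the 40 genes, FAT4 and NT5E had a mean below 0.5 FPKM and were not tested. Of the 38 tested, 8 fell with SAR, where 9.55% of all tested genes did, and 3 rose, where 23.7% of all tested genes did. The 8 were the kinases STK3 and MAP4K4, the scaffolds WWC2 and FRMD6, the angiomotin AMOTL1, and the targets CRIM1, GADD45B and PTPN14. The 3 that rose were AMOT, AJUBA and FJX1. After rescaling 21 of the 38 fell, where 15.5% of all tested genes did, and 2 rose, where 13.8% did. AMOT was upregulated, where 3.41% of all tested genes were, and 0 members were downregulated, where 1.58% were; at an unadjusted p under 0.05 with the same fold change the number was also 0, and with voom on recovered reads it was 0. The number that fell was 4 with no filter on low values (2.85% of all genes), 14 with quantile normalization (14.0%), 15 with voom on recovered reads (11.1%) and 22 with voom after rescaling (18.1%). In bulk libraries such as these, fewer cells of a type and less RNA per cell cannot be told apart.

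**Figure D1:**
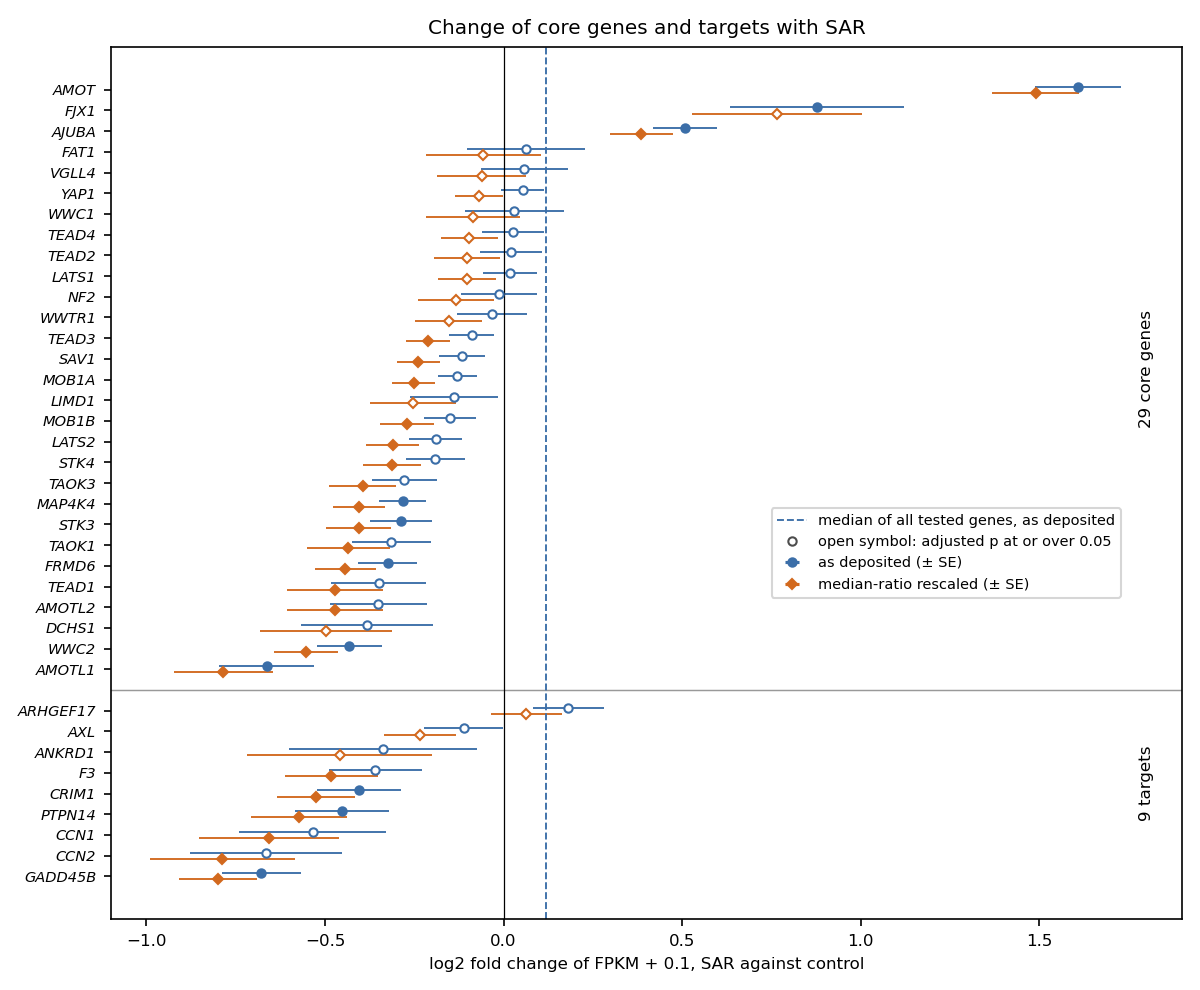
Log2 fold change, SAR over control, of the 38 tested genes, with targets and core genes as separate blocks, each ordered by fold change. Circles are the values as deposited and diamonds those after median-ratio rescaling, bars are standard errors from limma, filled symbols passed an adjusted p of 0.05, and the dashed line is the median of all tested genes as deposited. As deposited, AMOT lies at 1.61 and every other gene lies between -0.68 and 0.88.

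The effectors showed no call in either direction. YAP1 was expressed at 27.9, 31.1 and 30.3 FPKM in the control libraries and 31.5, 29.7 and 31.4 FPKM in the SAR libraries. The groups overlapped, and the log2 fold change was 0.05 ± 0.06 (SE; limma, adjusted p = 0.52). WWTR1 was at 6.01, 5.15 and 4.84 FPKM in control and 4.97, 4.995 and 5.62 FPKM with SAR, again overlapping (log2 fold change -0.03, adjusted p = 0.814). The ratio of YAP1 to WWTR1 FPKM was 5.64 ± 0.881 in control and 5.95 ± 0.372 with SAR (SD, n = 3 each; exact permutation test, two-sided, p = 0.8, where the smallest p that 3 libraries against 3 allow is 0.1). The exons of YAP1 and WWTR1 are overlapped over 9.97% and 9.45% of their length by genes on the opposite strand, and the strand setting of the counting is not given in the sources used here.

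**Figure D2:**
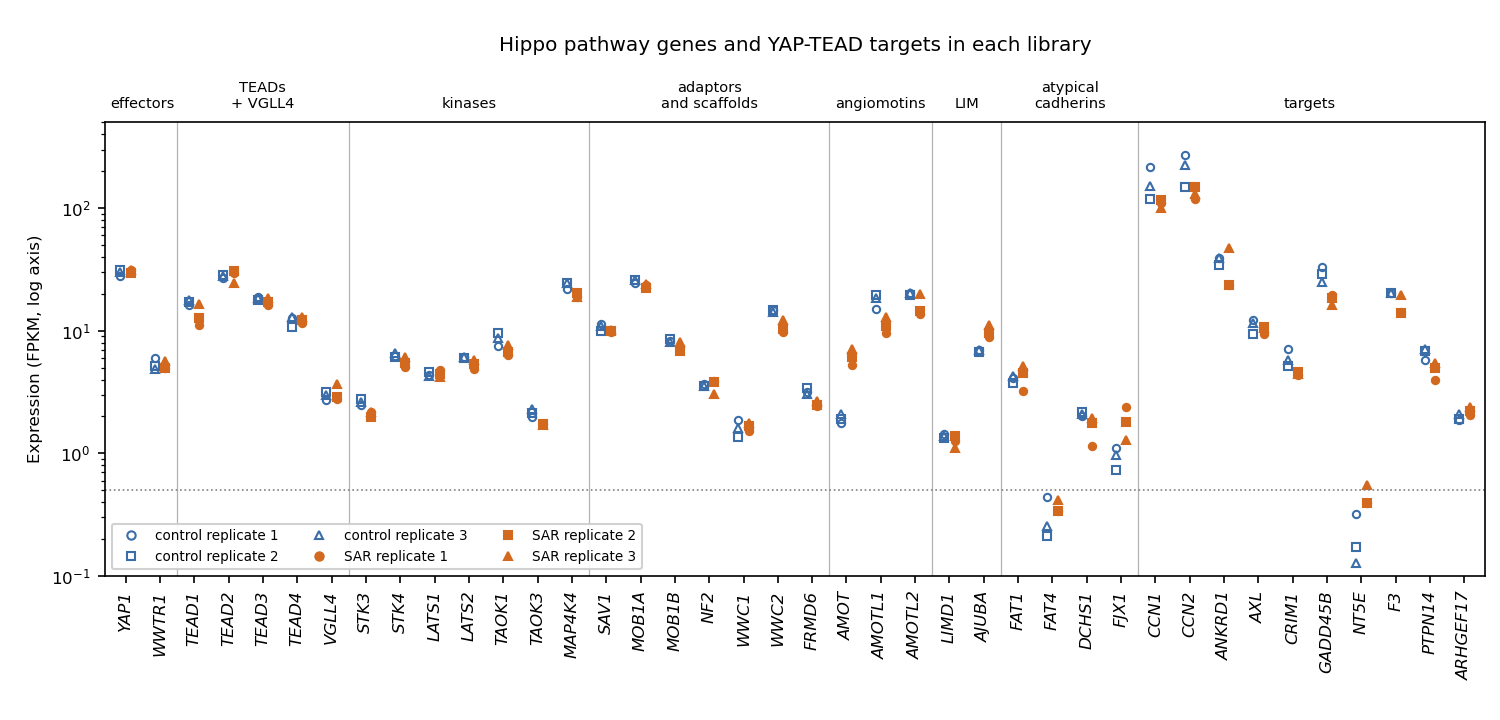
FPKM (log axis) of the 40 genes by role, with each library of control (open symbols) and SAR (filled symbols) as 1 point; the dotted line marks 0.5 FPKM. YAP1 lies between 27.9 and 31.5 FPKM in all 6 libraries, while GADD45B lies between 25.2 and 32.8 FPKM in control and between 16.3 and 19.5 FPKM with SAR.

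The TEAD factors supply the DNA binding of YAP1 and TAZ, and all 4 were expressed in every library. TEAD1 was at 16.2, 17.1 and 17.7 FPKM in control and 11.2, 12.8 and 16.4 FPKM with SAR. SAR replicates 1 and 2 lay well below control and SAR replicate 3 lay within the control range, so the log2 fold change of -0.35 had an adjusted p of 0.0846. Without SAR replicate 3 it was -0.50 (adjusted p = 0.00799), without any other library between -0.38 and -0.23 (adjusted p 0.122 to 0.201), and after rescaling it was -0.47 (adjusted p = 0.0384). TEAD2 showed the reverse order among the SAR libraries, with 27.1, 28.4 and 27.9 FPKM in control and 29.8, 30.5 and 24.6 FPKM with SAR. SAR replicates 1 and 2 lay above all control libraries and SAR replicate 3 below them (log2 fold change 0.02, adjusted p = 0.874; without SAR replicate 3 0.12, adjusted p = 0.115). TEAD3 was at 19.0, 17.7 and 18.6 FPKM in control and 16.3, 17.2 and 18.5 FPKM with SAR (log2 fold change -0.09, adjusted p = 0.308; after rescaling -0.21, adjusted p = 0.0399). TEAD4 was at 12.7, 10.7 and 12.8 FPKM in control and 11.6, 12.3 and 12.9 FPKM with SAR, with overlapping groups (log2 fold change 0.03, adjusted p = 0.836). TEAD1 to TEAD4 together came to 75.3 ± 1.59 FPKM in control and 71.4 ± 2.17 FPKM with SAR (exact permutation p = 0.1). The share of that sum from TEAD1 was 21.6%, 23.1% and 22.9% in control and 16.2%, 17.5% and 22.7% with SAR (exact permutation p = 0.2). VGLL4, which competes with YAP1 for TEAD factors, was between 2.75 and 3.14 FPKM in control and between 2.77 and 3.69 FPKM with SAR (adjusted p = 0.734), and 23.7% of its exon length is shared with ATG7 and AC022001.2 on the opposite strand, as 10.7% of that of TEAD2 is with CD37.

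In the kinase cascade, STK3 and MAP4K4 fell and LATS1 showed no call. LATS1 was at 4.34, 4.61 and 4.27 FPKM in control and 4.81, 4.42 and 4.17 FPKM with SAR (log2 fold change 0.02, adjusted p = 0.872). LATS2, which is also transcribed downstream of YAP1, was at 6.14, 6.00 and 6.13 FPKM in control and 4.91, 5.32 and 5.79 FPKM with SAR. All SAR values of LATS2 lay below all control values, with a log2 fold change of -0.19 (adjusted p = 0.0904), -0.25 without SAR replicate 3 (adjusted p = 0.0325), -0.20 to -0.13 without any other library (adjusted p 0.165 to 0.21) and -0.31 after rescaling (adjusted p = 0.0219). STK3 fell from 2.61 ± 0.150 to 2.12 ± 0.113 FPKM (SD, n = 3 each; log2 fold change -0.29, adjusted p = 0.0411). This call was lost without any 1 of the 6 libraries, with adjusted p between 0.0502 and 0.13. Its partner STK4 lay between 6.16 and 6.59 FPKM in control and between 5.09 and 6.12 FPKM with SAR (log2 fold change -0.19, adjusted p = 0.113; without SAR replicate 3 -0.26, adjusted p = 0.0317, and without any other library 0.172 to 0.285). MAP4K4, which phosphorylates LATS kinases in parallel to STK3 and STK4, fell from 23.6 ± 1.49 to 19.4 ± 0.802 FPKM (log2 fold change -0.28, adjusted p = 0.0179), and the adjusted p was 0.0622, 0.0748 and 0.051 without control replicate 2, control replicate 3 and SAR replicate 1. The TAO kinases act upstream of STK3 and STK4, and neither passed the test with all libraries. TAOK3 lay between 1.98 and 2.28 FPKM in control and between 1.72 and 1.74 FPKM with SAR (log2 fold change -0.28, adjusted p = 0.0537), and TAOK1, in which SAR replicate 3 lay within the control range, had a log2 fold change of -0.31 (adjusted p = 0.0654; without control replicate 1 0.0368, without SAR replicate 3 0.0356, without any other library 0.159 to 0.181). After rescaling, 6 of the 7 kinases fell, all but LATS1, where 15.5% of all tested genes did.

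Among the adaptors and scaffolds, which hold the kinases together or at the membrane, WWC2 and FRMD6 fell. WWC2, of the KIBRA family that activates LATS kinases, fell from 14.6 ± 0.343 to 10.8 ± 1.34 FPKM (log2 fold change -0.43, adjusted p = 0.0127). This held under all 16 alternatives, and 25.9% of the exon length of WWC2 is shared with CLDN22 on the opposite strand. FRMD6 fell from 3.20 ± 0.181 to 2.53 ± 0.143 FPKM (log2 fold change -0.32, adjusted p = 0.0237), with adjusted p between 0.0584 and 0.0813 without control replicate 2, control replicate 3, SAR replicate 1 or SAR replicate 2. SAV1, MOB1A and MOB1B, the cofactors of the STK and LATS kinases, had log2 fold changes of -0.12, -0.13 and -0.15 with adjusted p of 0.196, 0.109 and 0.157. SAV1 shares 14.9% of its exon length with ATL1. All 3 passed after rescaling (adjusted p = 0.0247, 0.0219 and 0.0371), and MOB1B also passed without SAR replicate 3 (adjusted p = 0.0496; without any other library 0.232 to 0.4). NF2, the membrane-associated tumor suppressor merlin, and WWC1 had log2 fold changes of -0.01 and 0.03 (adjusted p = 0.938 and 0.883).

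The angiomotins, junctional scaffolds that bind YAP1 and can hold it outside the nucleus, did not move together: AMOT rose, AMOTL1 fell and AMOTL2 did not pass the test. AMOT was at 1.78, 1.91 and 2.10 FPKM in control and 5.24, 6.07 and 7.07 FPKM with SAR. The groups were far apart, with a log2 fold change of 1.61 ± 0.12 (SE; adjusted p = 0.000514), 1.49 after rescaling. AMOTL1 was at 15.1, 19.6 and 18.4 FPKM in control and 9.58, 11.0 and 12.8 FPKM with SAR. All SAR values of AMOTL1 lay below all control values (log2 fold change -0.66 ± 0.13, adjusted p = 0.0112). AMOTL2 was at 20.4, 19.7 and 20.4 FPKM in control and 13.6, 14.6 and 19.9 FPKM with SAR. SAR replicate 3 lay within the control range of AMOTL2, and the log2 fold change was -0.35 with all libraries (adjusted p = 0.0871), -0.52 without that library (adjusted p = 0.00365), -0.37 to -0.24 without any other library (adjusted p 0.156 to 0.219) and -0.47 after rescaling (adjusted p = 0.0378). AMOT made up 4.85% ± 0.251 of the summed angiomotin FPKM in control and 18.5% ± 0.715 with SAR (SD, n = 3 each), and AMOTL1 made up 44.3% ± 3.60 and 33.6% ± 1.29. Both differences had an exact permutation p of 0.1, the smallest possible. The summed FPKM of the 3 genes was 39.8 ± 2.11 in control and 33.3 ± 5.87 with SAR (exact permutation p = 0.2). These shares are ratios within a library and do not change with rescaling.

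**Figure D3:**
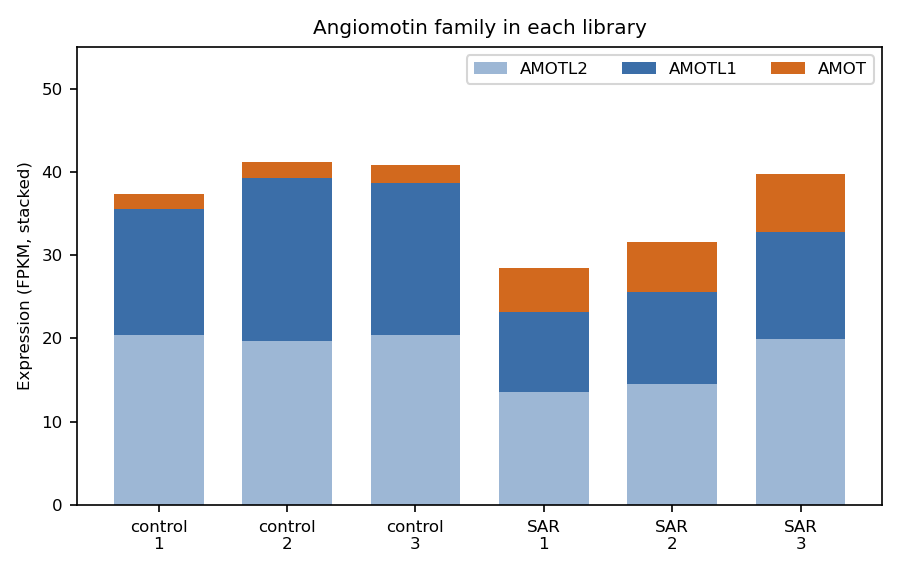
FPKM of AMOT, AMOTL1 and AMOTL2 in each library (1 bar each, from 0), stacked to the angiomotin sum. AMOT takes 4.65% to 5.13% of the sum in control and 17.8% to 19.2% with SAR.

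The LIM proteins bind and restrain LATS kinases at junctions. AJUBA was at 6.99, 6.75 and 7.03 FPKM in control and 8.91, 9.64 and 11.2 FPKM with SAR. All SAR values lay above all control values (log2 fold change 0.51 ± 0.09, adjusted p = 0.0073; after rescaling 0.39, adjusted p = 0.0192). LIMD1 lay between 1.34 and 1.43 FPKM in control and between 1.10 and 1.38 FPKM with SAR (adjusted p = 0.407). Of the atypical cadherin group, FJX1, which modifies FAT and DCHS cadherins and is also used as a YAP target, was at 1.10, 0.732 and 0.969 FPKM in control and 2.39, 1.81 and 1.29 FPKM with SAR. It rose with a log2 fold change of 0.88 ± 0.24 (adjusted p = 0.032) on 43 to 96 reads per library, with an adjusted p of 0.0502 after rescaling. Without control replicate 2, control replicate 3, SAR replicate 1 or SAR replicate 2 its adjusted p was between 0.0772 and 0.0926, and without SAR replicate 3 its log2 fold change was 1.10, which made it the other upregulated gene in that fit, where 3.32% of all tested genes were upregulated. FAT1 and DCHS1 had log2 fold changes of 0.06 and -0.38 (adjusted p = 0.789 and 0.152). FAT4 was between 0.214 and 0.440 FPKM over all libraries.

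Of the 9 tested targets, GADD45B, CRIM1 and PTPN14 fell and 0 rose. GADD45B, a stress-response gene, was at 32.8, 29.2 and 25.2 FPKM in control and 19.5, 18.4 and 16.3 FPKM with SAR. Its level was lower in every SAR library, with a log2 fold change of -0.68 ± 0.11 (adjusted p = 0.00542). CRIM1, a transmembrane protein that binds BMP ligands, was at 7.09, 5.14 and 5.82 FPKM in control and 4.35, 4.65 and 4.44 FPKM with SAR (log2 fold change -0.40, adjusted p = 0.0371). PTPN14, a phosphatase that binds YAP1, was at 5.80, 6.79 and 7.15 FPKM in control and 3.99, 4.97 and 5.46 FPKM with SAR (log2 fold change -0.45, adjusted p = 0.0381). In all 3 genes every SAR library lay below every control library. The call of CRIM1 was lost without control replicate 1, control replicate 3 or any of the SAR libraries (adjusted p 0.0552 to 0.0953), and that of PTPN14 without control replicate 2, control replicate 3, SAR replicate 1 or SAR replicate 2 (adjusted p 0.0773 to 0.12).

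CCN1 and CCN2, matricellular proteins and the most used readouts of YAP activity, were the most abundant of the 10 targets and, of the 9 tested, the most variable between control libraries. CCN1 was at 217.9, 117.6 and 151.8 FPKM in control and 109.8, 116.4 and 100.1 FPKM with SAR. CCN2 was at 273.6, 148.8 and 224.2 FPKM in control and 118.8, 148.3 and 129.8 FPKM with SAR. In both genes control replicate 2 lay just above the highest SAR library. The log2 fold change was -0.53 ± 0.21 for CCN1 (adjusted p = 0.086) and -0.67 ± 0.21 for CCN2 (adjusted p = 0.0509). Without control replicate 2 these were -0.74 (adjusted p = 0.0257) and -0.91 (adjusted p = 0.00867). Without control replicate 1, the highest control library, they were -0.30 (adjusted p = 0.123) and -0.47 (adjusted p = 0.108), and after rescaling -0.66 (adjusted p = 0.0442) and -0.79 (adjusted p = 0.0277). With voom on recovered reads, added after the data were seen, the adjusted p was 0.0263 for CCN1 and 0.0111 for CCN2. Of the 16 alternatives, CCN1 passed under 4 and CCN2 under 7. The ratio of CCN2 to CCN1 was 1.33 ± 0.125 in control and 1.22 ± 0.118 with SAR (exact permutation p = 0.6).

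ANKRD1 and F3 were split by SAR replicate 3. ANKRD1, a nuclear ankyrin repeat protein, was at 39.3, 34.6 and 38.9 FPKM in control and 23.6, 23.4 and 47.5 FPKM with SAR. F3, the tissue factor of coagulation, was at 20.2, 20.4 and 20.1 FPKM in control and 14.2, 13.9 and 19.7 FPKM with SAR. SAR replicate 3 was the highest of all 6 libraries in ANKRD1 and close to control in F3, while the other SAR libraries were lower than all control libraries. With all libraries the log2 fold changes were -0.34 and -0.36 (adjusted p = 0.352 and 0.0718), and without SAR replicate 3 they were -0.67 and -0.52 (adjusted p = 0.0034 and 0.00265). Without SAR replicate 1 or 2 ANKRD1 was at -0.17 in both cases (adjusted p = 0.68 and 0.686), and F3 was at -0.29 and -0.27 (adjusted p = 0.184 and 0.195). AXL, a receptor tyrosine kinase, was at 12.2, 9.44 and 11.7 FPKM in control and 9.34, 10.8 and 10.6 FPKM with SAR (adjusted p = 0.455). ARHGEF17 was at 1.85, 1.89 and 2.10 FPKM in control and 2.04, 2.23 and 2.40 FPKM with SAR (log2 fold change 0.18, adjusted p = 0.197). NT5E, the ectonucleotidase CD73, was at 0.322, 0.172 and 0.129 FPKM in control and 0.397, 0.391 and 0.552 FPKM with SAR, on 11 to 46 reads. All SAR values of NT5E lay above control, and tested with no filter on low values its adjusted p was 0.178.

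Core and targets were then compared by their medians, as a description with no test. The median log2 fold change was -0.13 over the 29 tested core genes and -0.40 over the 9 tested targets, against 0.12 over all tested genes. After rescaling these were -0.25, -0.53 and 0.00. Relative to the control mean, the median target lay at -0.52, -0.43 and -0.26 on the log2 scale in SAR replicates 1, 2 and 3, and at 0.14, -0.12 and 0.05 in control replicates 1, 2 and 3. By this median SAR replicate 3 was nearest to control. Of the single tested targets it was nearest only in ANKRD1, F3 and PTPN14. In GADD45B (-0.82) and CCN1 (-0.65) it lay farthest below the control mean of the SAR libraries. Of the targets 3 of 9 fell (33.3%) and of the core genes 5 of 29 (17.2%), where 9.55% of all tested genes did, and after rescaling 6 of 9 (66.7%) and 15 of 29 (51.7%), where 15.5% did. All SAR libraries lay below all control libraries in 16 of the 38 genes (10 core genes and 6 targets), where 15.2% of all tested genes did, and above them in 3, where 35.5% did. After rescaling these were 23 genes (24.2% of all tested genes) and 3 genes (23.7%). FJX1, LATS2 and AMOTL2 are themselves used as YAP targets, and with these counted as targets the medians were -0.12 for core and -0.36 for targets.

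**Figure D4:**
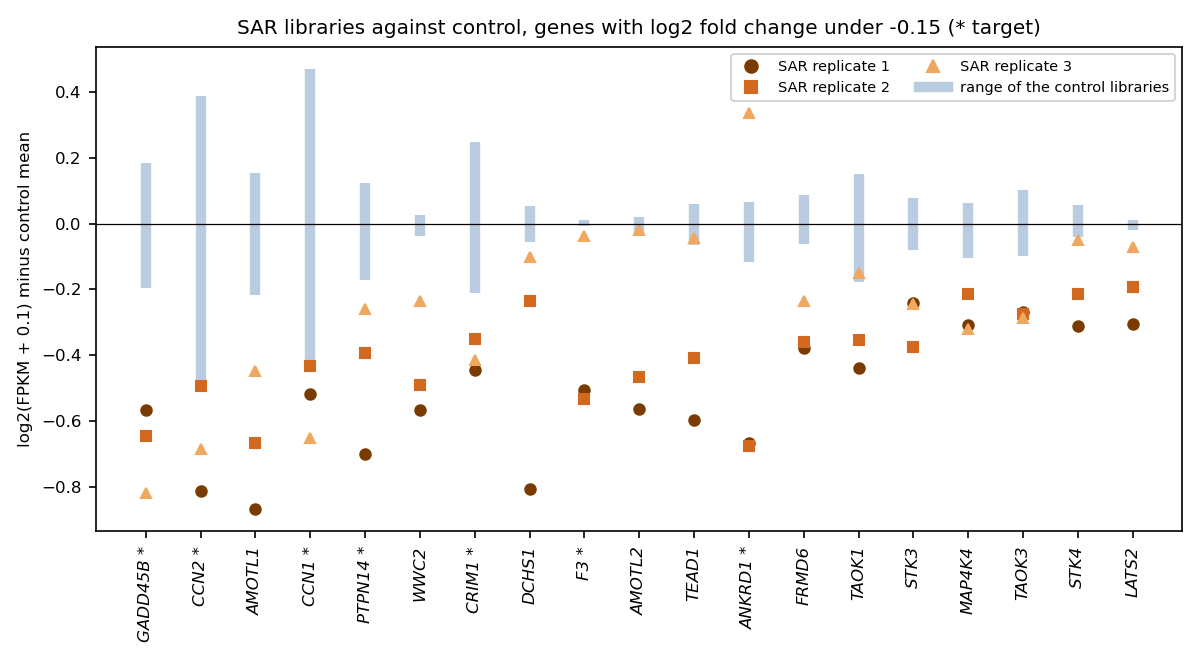
Difference of log2(FPKM + 0.1) of each SAR library from the control mean, for the 19 genes with a log2 fold change under -0.15; bars span the control libraries and asterisks mark targets. In TEAD1, AMOTL2, F3 and ANKRD1 SAR replicate 3 lies near or above 0, while SAR replicates 1 and 2 lie below it.

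SAR replicate 3 was the highest of the SAR libraries in 24 of the 38 genes, where 40.2% of all tested genes had it highest. These were 20 of 29 core genes (69.0%) and 4 of 9 targets (44.4%). Without this library 14 of the 38 fell, where 11.2% of all tested genes did. The added genes were TEAD1, LATS2, STK4, MOB1B, AMOTL2, TAOK1, ANKRD1 and F3, while STK3 and CRIM1 were lost. Without control replicates 1, 2 and 3 in turn, 7, 6 and 3 of the 38 fell, where 8.0%, 6.1% and 5.06% of all tested genes did, and without SAR replicates 1 and 2 in turn 3 and 4 fell, where 7.13% and 6.32% did. Among the 14 DE markers SAR replicate 3 was the lowest of the SAR libraries in 9 and the highest in 3. The share of all tested genes that had it lowest was not computed, so the 9 cannot be set against it. The part of such differences between the SAR libraries in the values above was not tested.

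Other genes of the pathway were taken from a list of 52, of which 42 were tested. Of these 7 rose and 7 fell, with a median log2 fold change of 0.07, where 23.7% of all tested genes rose and 9.55% fell. After rescaling 3 rose and 8 fell, where 13.8% and 15.5% of all tested genes did. By adjusted p the leading 5 were STK38L, an NDR kinase related to LATS, at -0.67 on the log2 scale (adjusted p = 0.000849), CSNK1D, which phosphorylates YAP1 after LATS, at 0.52 (adjusted p = 0.00197), the Src family kinase YES1 at -0.40 (adjusted p = 0.00286), STK26 at -0.34 (adjusted p = 0.00387) and the cadherin FAT3 at -1.06 (adjusted p = 0.00425). In a list of 30 other YAP-TEAD targets, 21 were tested, 9 fell and 2 rose, with a median log2 fold change of -0.31, against the same 9.55% and 23.7% of all tested genes. After rescaling 11 fell and 1 rose, against 15.5% and 13.8%. The leading 5 were LHFPL2 at 0.84 (adjusted p = 0.00102), TGFB1, a cytokine, at -0.51 (adjusted p = 0.00122), MYOF at -0.87 (adjusted p = 0.00122), DIAPH3, an actin nucleator, at -0.80 (adjusted p = 0.00129) and the secreted protease ADAMTS1 at -0.48 (adjusted p = 0.00178).

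SRC and PTK2, which encodes focal adhesion kinase, had log2 fold changes of -0.15 and -0.12 (adjusted p = 0.0663 and 0.128), and -0.27 and -0.25 after rescaling, where both passed (adjusted p = 0.0136 and 0.0219). Cell type markers moved with SAR as well. Of 14 DE markers 5 rose and 7 fell (5 and 8 after rescaling), against 23.7% and 9.55% of all tested genes. Their summed level was 4028 to 5135 FPKM in control and 2121 to 2180 FPKM with SAR, most of it from CER1, and the other 13 summed to 488.0 to 531.7 FPKM in control and 429.2 to 533.3 FPKM with SAR, which overlap. FOXA2 rose by 1.44 and SOX17 by 1.06 on the log2 scale (adjusted p = 0.000107 and 0.00724). In all 4 DE markers were upregulated and 5 downregulated, where 3.41% and 1.58% of all tested genes were. The 5 were GSC, EOMES, MIXL1, CER1 and GATA4, at -1.48, -1.36, -1.35, -1.28 and -1.05 (adjusted p 0.000382 to 0.00281). Rescaling left 2 DE markers upregulated and 5 downregulated, where 2.46% and 2.21% of all tested genes were. Of 8 pluripotency markers 3 rose (1 after rescaling) and 1, NANOG, fell under both scalings, at -1.30 as deposited (adjusted p = 0.000672). POU5F1 had a log2 fold change of 0.31 (adjusted p = 0.167), and the summed level was 857.8 to 960.6 FPKM in control and 1058 to 1070.0 FPKM with SAR. Mesoderm markers summed to 21.4 to 23.0 FPKM in control and 27.4 to 31.9 FPKM with SAR, with 2 of 5 tested higher and 1 lower under both scalings, and 6 of the 11 were below 0.5 FPKM. Of the other lists, 1 of 3 tested neural ectoderm markers and 1 of 2 tested trophoblast and amnion markers rose, and 0 of 3 stroma and 0 of 1 endothelium markers passed the test in either direction. No marker of these lists was at 0 in all libraries, but neither was any gene of the expression table. A value above 0 thus does not show that a cell type was present. The part of these markers in the values of the pathway genes was not tested.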

How the data were processed

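Libraries of mRNA from 3 control and 3 SAR samples of H1 cells were compared. The authors deposited 1 table of FPKM for 40396 genes, without pooling. The submitters' processing notes name HISAT2, featureCounts, Subread and DESeq2 and GRCh38.p13; the strand setting and annotation release are not given in the sources used here. Groups came from the sample labels. Gene exons and overlaps are those of GENCODE 29. The genes, lists and naming rule were chosen with earlier results of these data known.

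FPKM are not counts, so limma 3.58.1 in R 4.3.3 (lmFit, eBayes with an intensity trend) was run on log2(FPKM + 0.1) over genes whose mean reached 0.5 FPKM, without a block. Fold changes on this scale understate those of low genes. Thresholds were an adjusted p of 0.05 and, for up- and downregulated genes, a log2 fold change of 1. Shares and sums were compared with exact two-sided permutation tests. All 40 genes are named, with values in each library for YAP1, WWTR1, the TEAD and LATS genes, the targets and any other gene past the test with a log2 fold change over 0.5 in size. The test was checked on simulated data, where no changed gene was called in the wrong direction and most misses were among the genes with the most noise; a first criterion on the share recovered was missed and was then replaced.

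Whole reads were recovered from FPKM steps, with 99.995% of genes given a whole-read length (tolerance 0.02 reads). As a wide range of lengths was tried for each gene, this share is no check of the recovery. Of these lengths 57.9% equalled the GENCODE exon union, and for the rest the smallest fitting length was taken. Read numbers of the rest may thus be too low, also in voom. The recovered reads gave depth, read numbers and a voom test added after the data were seen. Voom called 15 of the 38 genes lower (9 core genes and 6 targets), where 11.1% of all tested genes were. It called 3 higher, where 27.5% of all tested genes were. Read numbers cover counting error only. Alternatives were pseudocounts of 1 and 0.01, no filter on low values, a filter at 1 FPKM, quantile normalization, median-ratio rescaling, a flat prior variance, a replicate block and each library left out. Python 3.11.15 with pandas 2.3.3, numpy 2.4.6, scipy 1.17.1 and matplotlib 3.10.9 was used for summaries and plots.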

Additional observations from a re-analysis of the deposited data

How the results depend on the processing

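Of 608 values of single genes under the alternatives, 481 kept their direction and their side of the threshold, 56 passed it newly, 38 lost it and 33 changed sign; AMOT, AMOTL1, WWC2, AJUBA and GADD45B passed under all 16 alternatives. The count of members that fell, 8, was 4 with no filter on low values, 21 with median-ratio rescaling, 14 with quantile normalization, 15 with voom on recovered reads and 22 with voom after rescaling, and 3 to 14 with 1 library left out. With control replicate 2 or 3 left out, or SAR replicate 1 or 2, 2 rose in place of 3. In these fits, in the same order, 14.7%, 12.9%, 16.8% and 14.5% of all tested genes rose, against 23.7% with all libraries. The members upregulated numbered 1 to 2 with 1 library left out, and 2 without SAR replicate 3, FJX1 being the other one. The core median was -0.251 with rescaling, -0.175 with quantile normalization and -0.252 with voom after rescaling. All sign changes were in genes that passed under no alternative. With rescaling, the log2 fold changes were -0.0689 for YAP1, -0.102 for TEAD2, -0.0958 for TEAD4, -0.102 for LATS1, -0.0854 for WWC1, -0.0604 for VGLL4 and -0.0566 for FAT1, and with voom after rescaling, in the same order, -0.0692, -0.103, -0.0913, -0.107, -0.0831, -0.0581 and -0.0562. With quantile normalization they were -0.0192 for TEAD2, -0.0142 for TEAD4, -0.103 for LATS1, -0.162 for WWC1, -0.0867 for VGLL4 and -0.0623 for FAT1. With 1 library left out, the log2 fold changes of genes that changed sign ran from -0.0985 to 0.0543 for WWTR1, -0.0365 to 0.118 for TEAD2, -0.0566 to 0.0714 for TEAD4, -0.0359 to 0.0657 for LATS1, -0.0761 to 0.0995 for NF2, -0.0841 to 0.137 for WWC1, -0.0656 to 0.134 for VGLL4 and -0.0778 to 0.253 for FAT1. Apart from the rescaling itself, which lowers every SAR value, the cause was not tested. Same-numbered libraries deviated from their group means with correlations of 0.0729, 0.00286 and 0.0247. With 3 libraries in each group, these cannot decide whether the replicate numbers paired the samples. With the replicate block 7 members fell and 3 rose, where 8.84% and 20.8% of all tested genes did. Not every library correlated best with its own number. FJX1 and NT5E rest on few reads, 43 to 96 and 11 to 46 per library.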
